A study of Mus musculus with 20 samples.

Results

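The genes described here encode 9 proteins that goblet cells make for the intestinal mucus or hold in their mucin granules and secretory machinery: Muc2, Fcgbp, Clca1, Zg16, Tff3, Spink4, Agr2, Capn9 and Rep15. They were chosen by gene symbol, and all 9 were present once in both deposited count tables, which share 11296 uniquely named genes. Goblet cells are the mucus-secreting lineage of the gut lining. They arise from crypt progenitors in which the transcription factor Atoh1 sets the secretory fate, and a further factor, Spdef, drives their maturation. A maturing goblet cell folds and glycosylates very large mucin molecules, packs them into granules and releases them as the gel that separates bacteria from the epithelium.

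RNA was sequenced from small-intestinal crypt epithelium of C57BL/6J mice aged 8 weeks, all of which carried Lgr5-GFP, a reporter of the stem cell receptor gene Lgr5. Viable EpCAM+ cells without CD45, CD31 or TER119 were sorted by GFP brightness. The 4 groups, each of 5 libraries, were GFP-low cells of Itgb7-/- mice (KO GFP-low), GFP-low cells of Itgb7+/+ mice (WT GFP-low), GFP-high cells of Itgb7-/- mice (KO GFP-high) and GFP-high cells of Itgb7+/+ mice (WT GFP-high). The labels call GFP-low cells transit-amplifying (TA) cells and GFP-high cells stem cells. Itgb7 encodes integrin beta 7, a homing receptor subunit of gut lymphocytes. Its transcript is not analysed here, and the labelled genotypes were not checked by it. KO mice carry the numbers 2, 3, 4, 5 and 6 and WT mice 1, 3, 6, 7 and 8, and values of single libraries are given in this order. The labels name the mice only by these numbers.

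Library totals ran from 20900404 to 27838392 counts. Levels are in CPM (counts per fixed library total, after TMM scaling over all 20 libraries). Lgr5 averaged 7.00 ± 2.38 CPM in KO GFP-low and 12.9 ± 6.71 CPM in WT GFP-low libraries, against 105 ± 11.2 CPM in KO GFP-high and 102 ± 20.0 CPM in WT GFP-high libraries (SD, n = 5 each). The label of GFP-low cells names no goblet cell, yet the 9 goblet genes took 3.81% ± 0.812 of all counts in KO GFP-low and 3.72% ± 1.26 in WT GFP-low libraries. In GFP-high libraries they took 0.334% ± 0.108 in KO and 0.486% ± 0.162 in WT mice. Markers of other crypt lineages were also present in the sorted cells, with the summed level of 23 Paneth cell genes at 114924 ± 50363 CPM in KO GFP-low and 203051 ± 125297 CPM in WT GFP-low libraries. WT mice 3 (346005 CPM) and 8 (329587 CPM) lay far above the other WT GFP-low libraries, which reached at most 138360 CPM. Of a list of 20 leukocyte genes, 8 were in the GFP-high and 7 in the GFP-low table. Gzma, Gzmb, Ccl5, Cd7, Nkg7, Itgam and Lyz2 were in both, Cd3g only in the GFP-high table, and Ptprc, Cd3e and Cd8a in neither. Genes of low mean count are in neither table, so absence does not show that a transcript was missing from the cells.

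The genes lie on 7 chromosomes of the mouse build GRCm38, all as protein-coding genes whose exons overlap those of no other annotated gene. Muc2 spans chr7:141690340-141754693 on the + strand, and Fcgbp (chr7:28071236-28120862, +) and Zg16 (chr7:127050156-127087328, −) lie on the same chromosome. Clca1 lies at chr3:145003817-145032776 (−), Tff3 at chr17:31125306-31129646 (−), Spink4 at chr4:40920052-40931395 (+), Agr2 at chr12:35992907-36004087 (+), Capn9 at chr8:124576111-124618731 (+) and Rep15 at chr6:147032584-147034245 (+). The promoters of the gel-forming mucin, of its partner in the gel and of its folding enzyme are printed as examples. Their transcripts moved together across the libraries, as did those of other members, and shared regulation was not tested. Each window runs from 250 bases before to 50 bases after the RefSeq start site (GRCm38.p6), in lower case, with matches to the 7 searched motifs in capitals. RefSeq promoters of the table used were found for Muc2, Fcgbp, Agr2 and Capn9.
Muc2, chr7:141690090-141690389, + strand: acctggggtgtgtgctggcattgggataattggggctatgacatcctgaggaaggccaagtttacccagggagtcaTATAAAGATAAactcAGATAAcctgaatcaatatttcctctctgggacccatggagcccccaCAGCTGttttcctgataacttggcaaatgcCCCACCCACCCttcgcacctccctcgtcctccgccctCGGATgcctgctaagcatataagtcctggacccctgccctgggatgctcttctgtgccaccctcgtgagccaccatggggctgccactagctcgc
Fcgbp, chr7:28070986-28071285, + strand: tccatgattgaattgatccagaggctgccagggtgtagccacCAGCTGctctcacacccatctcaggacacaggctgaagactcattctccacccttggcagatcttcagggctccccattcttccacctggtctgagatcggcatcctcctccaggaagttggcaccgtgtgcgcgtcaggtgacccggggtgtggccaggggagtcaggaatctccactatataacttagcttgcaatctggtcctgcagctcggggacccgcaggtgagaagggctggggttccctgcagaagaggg
Agr2, chr12:35992675-35992974, + strand: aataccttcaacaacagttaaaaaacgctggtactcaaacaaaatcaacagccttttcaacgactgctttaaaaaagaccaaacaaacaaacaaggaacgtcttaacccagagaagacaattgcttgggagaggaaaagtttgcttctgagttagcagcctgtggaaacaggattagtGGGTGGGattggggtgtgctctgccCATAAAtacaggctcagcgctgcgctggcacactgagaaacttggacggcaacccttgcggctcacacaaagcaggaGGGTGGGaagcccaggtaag

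The motifs, searched on both strands, were CAGCTG, an E-box of the kind that basic helix-loop-helix factors read, AGATAA, a site form of zinc finger factors of the Gata family, TATAAA, the core promoter box near many start sites, TTTATG, a site form of Cdx factors, GTAAACA, a site form of forkhead factors, CGGAT, the core read by Spdef, and CCCACCC, a site form of Klf factors. The Muc2 window held CAGCTG at −112 from the start site, AGATAA at −169 and −159, TATAAA at −174, CGGAT at −45 and CCCACCC at −82 and −78. Its TATAAA shares a base with the first AGATAA, and its CCCACCC matches overlap. Fcgbp held CAGCTG at −208. Agr2 held CATAAA, the other strand of the Cdx motif, at −47 and GGGTGGG, the other strand of the Klf motif, at −72 and 31. Capn9 held ATCCG, the other strand of the Spdef core, at −99. Of 32851 promoters of the same length, 16.3% held CAGCTG, 11.2% AGATAA, 13.6% TATAAA, 11.9% TTTATG, 3.65% GTAAACA, 16.3% CGGAT and 17.5% CCCACCC. The matches describe letters only.

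The first comparison asked how the goblet genes differ between GFP-low and GFP-high cells. All 9 were higher in GFP-low cells of both genotypes, from 5.54-fold (Spink4) to 30.9-fold (Zg16) in KO mice and from 4.56-fold (Spink4) to 20.8-fold (Zg16) in WT mice. In KO mice 50.5% of 11294 genes tested were called, 26.2% higher and 24.4% lower in GFP-low cells, at an adjusted p of 0.05 (edgeR quasi-likelihood test, Benjamini-Hochberg adjustment over all genes, two-sided), and 9 of 9 goblet genes were higher. In WT mice 43.4% of 11293 genes were called, 22% higher and 21.4% lower, and again 9 of 9 were higher. The median log2 fold change of the 9 was 3.71 in KO and 3.22 in WT mice, against −0.01 over all genes in each genotype. For each of the 9 genes, and in each genotype, the 5 GFP-low libraries lay above the 5 GFP-high libraries. In sorted bulk samples, fewer cells of a type and less RNA per cell cannot be told apart.

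**Figure D1:**
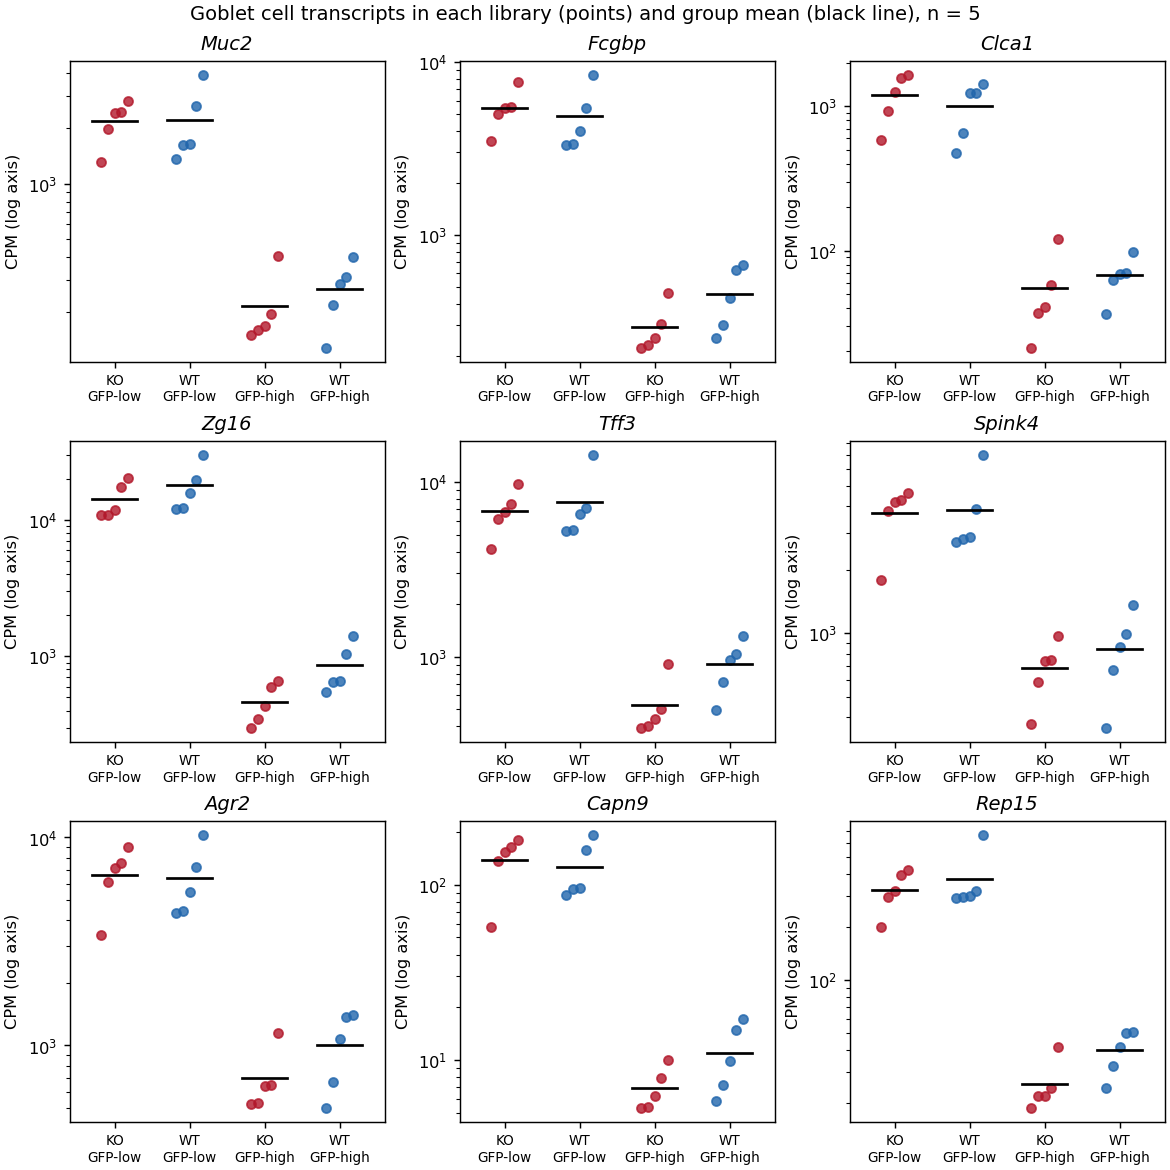
Level of each goblet gene in CPM (log axis) by group, with 1 point per library (spread sideways in order of value) and the group mean as a black line, n = 5. The GFP-low points lie above all GFP-high points in every panel, while KO and WT points overlap within each population.

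Muc2, the gel-forming mucin and main structural protein of intestinal mucus, differed by 10.3-fold between the populations of KO mice and 8.35-fold between those of WT mice. Muc2 had 1312, 2434, 2458, 2811 and 1997 CPM in KO GFP-low libraries, against 149.8, 159.7, 195, 404 and 167 CPM in KO GFP-high libraries. In WT mice it had 2640.3, 1356, 1624, 1636 and 3922 CPM in GFP-low libraries, against 398, 312, 217, 127 and 285 CPM in GFP-high libraries. The populations were far apart, and WT mouse 8 had the highest Muc2 level of the GFP-low libraries. The log2 fold change of Muc2 was 3.37 ± 0.29 in KO mice (adjusted p = 7.96e-07) and 3.06 ± 0.35 in WT mice (adjusted p = 2.99e-05). Fcgbp, a large protein with von Willebrand D domains that is bound to Muc2 in the mucus, had 3481, 5428, 5482, 7702 and 5012 CPM in KO GFP-low libraries, against 303, 253, 230.4, 459.7 and 221 CPM in KO GFP-high libraries. Its levels in WT mice were 5411, 3301, 4003, 3346 and 8461 CPM in GFP-low libraries, against 673, 623, 300.3, 252 and 432 CPM in GFP-high libraries. The log2 fold change of Fcgbp was 4.22 ± 0.25 in KO mice (adjusted p = 5.16e-08) and 3.43 ± 0.35 in WT mice (adjusted p = 1.25e-05), and WT mouse 8 was again highest among GFP-low libraries.

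Zg16, a lectin-like mucus protein that binds the peptidoglycan of Gram-positive bacteria, had the greatest fold change of the 9 in both genotypes, and in KO mice the greatest of all 11294 genes tested. Zg16 had 10828, 10860.0, 11780.5, 20282 and 17421 CPM in KO GFP-low libraries, against 659, 430.1, 348, 594 and 298 CPM in KO GFP-high libraries. In WT mice it had 19596, 11995, 15766, 12162 and 30034 CPM in GFP-low libraries, against 1037, 1403, 664, 548 and 648 CPM in GFP-high libraries. Its lowest GFP-low library was still several times its highest GFP-high library. The log2 fold change of Zg16 was 4.95 ± 0.28 in KO mice (adjusted p = 3.95e-08) and 4.38 ± 0.35 in WT mice (adjusted p = 2.47e-06). Clca1, a secreted metalloprotease that cleaves Muc2 and loosens the gel, had 579 to 1653 CPM in KO GFP-low libraries, against 21.1 to 119.5 CPM in KO GFP-high libraries. In WT mice the ranges of Clca1 were 472 to 1433 CPM in GFP-low libraries, against 36.4 to 98.2 CPM in GFP-high libraries. It rose by a log2 fold change of 4.45 ± 0.44 in KO mice and 3.90 ± 0.34 in WT mice, the second greatest of the 9 in each.

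Tff3 is a trefoil peptide secreted with mucin that aids repair of the epithelium. Its mean level per kilobase of annotated exon was the highest of the 9 in KO GFP-low cells. The range overlapped that of Zg16. Tff3 had 4119.7, 7516, 6132, 9729 and 6718 CPM in KO GFP-low libraries, against 399.5, 439.9, 390.4, 912 and 503 CPM in KO GFP-high libraries. In WT mice it had 7106, 5269, 6608, 5287 and 14351 CPM in GFP-low libraries, against 1308, 952, 720.1, 495 and 1039 CPM in GFP-high libraries. Again no GFP-high library reached the GFP-low range. The log2 fold change of Tff3 was 3.71 ± 0.28 in KO mice (adjusted p = 2.49e-07) and 3.10 ± 0.33 in WT mice (adjusted p = 1.91e-05). Spink4, a member of the Kazal-type protease inhibitor family made in goblet cells, showed the smallest difference. Spink4 had 1784, 4175, 4619.6, 4288 and 3790.2 CPM in KO GFP-low libraries, against 369, 584, 734, 971 and 742 CPM in KO GFP-high libraries. In WT mice it had 2706, 3885, 2850.5, 2799 and 7021 CPM in GFP-low libraries, against 989, 667, 856, 354 and 1358 CPM in GFP-high libraries. Its GFP-high level was closer to its GFP-low level than for any other of the 9, without overlap within a genotype. The log2 fold change of Spink4 was 2.47 ± 0.27 in KO mice (adjusted p = 6.46e-06) and 2.19 ± 0.36 in WT mice (adjusted p = 3.94e-04).

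Agr2, a protein disulfide isomerase of the endoplasmic reticulum that mouse intestine needs to make Muc2, had 3379 to 8961 CPM in KO GFP-low libraries, against 524 to 1150.4 CPM in KO GFP-high libraries. In WT mice the ranges of Agr2 were 4331 to 10292 CPM in GFP-low libraries, against 500.1 to 1396 CPM in GFP-high libraries. Its log2 fold changes of 3.26 ± 0.28 in KO and 2.66 ± 0.33 in WT mice were smaller than those of all members but Spink4. Capn9, a calcium-dependent protease of the calpain family found in the digestive tract, was the least abundant, with a mean of 138 ± 47.6 CPM in KO GFP-low and 6.99 ± 2.01 CPM in KO GFP-high libraries, and of 125 ± 46.5 CPM in WT GFP-low and 11.0 ± 4.85 CPM in WT GFP-high libraries (SD, n = 5 each). Its log2 fold change was 4.32 ± 0.29 in KO and 3.51 ± 0.33 in WT mice. Rep15, an effector protein of the small GTPase Rab15, averaged 325 ± 86.9 CPM in KO GFP-low and 25.8 ± 9.08 CPM in KO GFP-high libraries, and 373 ± 163 CPM in WT GFP-low and 40.0 ± 11.5 CPM in WT GFP-high libraries (SD, n = 5 each). Its log2 fold change was 3.67 ± 0.24 in KO and 3.22 ± 0.28 in WT mice. Adjusted p-values of Clca1, Agr2, Capn9 and Rep15 lay between 1.05e-07 (Rep15) and 2.48e-06 (Clca1) in KO mice, and between 4.45e-06 (Rep15) and 5.34e-05 (Agr2) in WT mice.

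Levels of different genes were compared per kilobase of annotated exon, as CPM per kb. In KO GFP-low cells Tff3 averaged 13880.4 ± 4147 CPM per kb and Zg16 averaged 11324 ± 3462 CPM per kb, less than their spread apart. Spink4 (7823 ± 2365 CPM per kb) and Agr2 (5125 ± 1611 CPM per kb) came next, with ranges that overlapped each other. The Spink4 range (3741 to 9685 CPM per kb) also overlapped those of Tff3 (8356 to 19735) and Zg16 (8614 to 16135). Fcgbp followed at 516 ± 144 CPM per kb, Clca1 at 316 ± 119, Muc2 at 309 ± 80.8, Rep15 at 196 ± 52.3 and Capn9 at 57.2 ± 19.7 CPM per kb (SD, n = 5). The ranges of Fcgbp and Clca1, of Clca1 and Muc2, and of Muc2 and Rep15 overlapped, whereas Agr2 stood above Fcgbp, and Rep15 above Capn9, in every library. Thus transcripts of the small secreted proteins and the folding enzyme were far more abundant per kb of annotated exon than the Muc2 transcript. The exon length pools all annotated transcripts of a gene, and protein was not measured. In KO GFP-high cells the order was led by Spink4 (1426 ± 465 CPM per kb) and Tff3 (1073 ± 444), with Agr2 at 541 ± 201 and Zg16 at 371 ± 124 CPM per kb. WT GFP-low cells were led by Tff3 (15668 ± 7691 CPM per kb) and Zg16 (14249 ± 5933), and WT GFP-high cells by Tff3 (1831 ± 629) and Spink4 (1771 ± 782 CPM per kb).

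The make-up of the 9 transcripts therefore differed between the populations. Zg16 made up 35.2% ± 6.18 of their summed CPM in KO GFP-low, against 16.3% ± 6.22 in KO GFP-high libraries, and 40.3% ± 2.21 in WT GFP-low, against 19.7% ± 4.97 in WT GFP-high libraries. Spink4 made up 9.15% ± 2.00 in KO GFP-low, against 23.1% ± 5.53 in KO GFP-high libraries, and 8.80% ± 2.30 in WT GFP-low, against 19.1% ± 6.43 in WT GFP-high libraries. Agr2 made up 16.0% ± 2.00 in KO GFP-low, against 23.3% ± 1.74 in KO GFP-high libraries, and 14.5% ± 1.92 in WT GFP-low, against 22.1% ± 2.36 in WT GFP-high libraries. Zg16 thus took a larger share in GFP-low cells, and Spink4 and Agr2 a smaller one. Tff3 took 16.8% ± 1.81 in KO GFP-low, against 17.5% ± 1.99 in KO GFP-high libraries, less than the spread apart, and 17.1% ± 1.34 in WT GFP-low, against 20.4% ± 1.75 in WT GFP-high libraries, which is more than either SD apart. All percentages are means ± SD over 5 libraries.

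Because both populations came from the same mice, the ratio of GFP-low to GFP-high CPM was also taken mouse by mouse. For the summed CPM of the 9 genes it ran from 10.4 (mouse 2) to 16.5 (mouse 6) in KO mice and from 5.87 (mouse 3) to 15.4 (mouse 8) in WT mice. Zg16 had the greatest ratio of the 9 in 9 of 10 mice, with 16.4 to 58.5 in KO and 8.55 to 46.3 in WT mice. The exception was KO mouse 3, where Clca1 led. Spink4 had the smallest ratio in 9 of 10 mice, with 4.42 to 7.15 in KO and 2.74 to 7.90 in WT mice, and in WT mouse 3 Agr2 was smallest. Muc2 ratios were 6.95 to 15.2 in KO and 4.35 to 13.8 in WT mice. The log2 ratios of Zg16 and Clca1 lay above the mean of the other 8 in 10 of 10 mice, by 1.25 ± 0.48 for Zg16 and 0.75 ± 0.36 for Clca1 (SD, n = 10). Those of Agr2 and Muc2 lay below it in all 10, with −0.66 ± 0.09 for Agr2 and −0.36 ± 0.25 for Muc2, and Spink4 averaged −1.37 ± 0.62.

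**Figure D2:**
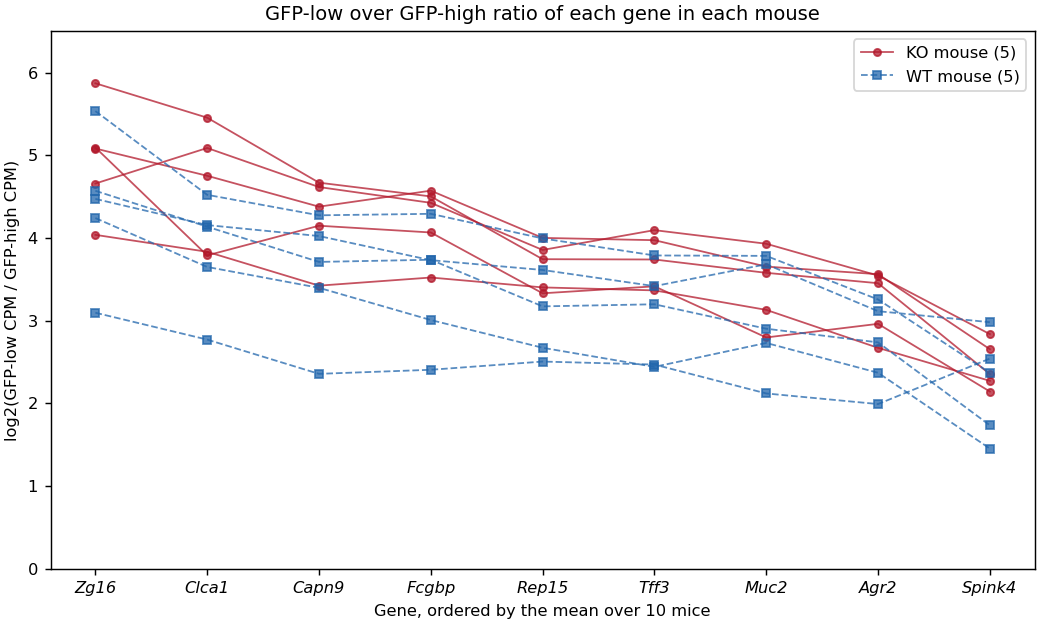
Log2 ratio of GFP-low to GFP-high CPM for each goblet gene, with 1 line per mouse (KO solid, WT dashed) and genes ordered by their mean over the 10 mice. The lines run roughly in parallel from Zg16 down to Spink4, and WT mouse 3 is the lowest line for 7 of the 9 genes.

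Other genes of the goblet cell programme were described from lists, beside the 26.2% of all genes called higher in KO and 22% in WT mice. Of 10 goblet fate factors, 9 rose in GFP-low cells of KO mice and 8 in those of WT mice. Xbp1, which drives the unfolded protein response and secretory capacity, rose by a log2 fold change of 1.53 ± 0.12 in KO and 1.28 ± 0.16 in WT mice. Spdef rose by 2.57 ± 0.31 in KO and 2.00 ± 0.29 in WT mice, and Creb3l4, a membrane-bound transcription factor, by 2.02 ± 0.22 in KO and 1.79 ± 0.23 in WT mice. Foxa2 did not pass in either genotype (−0.03 ± 0.28 in KO and −0.12 ± 0.26 in WT mice). The list's median was 1.76 in KO and 1.47 in WT mice.

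Of 19 genes of mucin glycosylation in both tables, 19 rose in KO and 17 in WT mice, with medians of 1.44 in KO and 1.18 in WT mice. Chst4, a sulfotransferase of mucin-type glycans, rose by 3.91 ± 0.29 in KO and 2.85 ± 0.27 in WT mice. C1galt1c1, the chaperone of the core 1 O-glycan synthase, rose by 2.10 ± 0.17 in KO and 1.85 ± 0.18 in WT mice, and St3gal4, a sialyltransferase, by 3.57 ± 0.31 in KO and 3.59 ± 0.35 in WT mice. Of 26 genes of secretory folding and transport, 25 rose and 1 fell in each genotype. Hspa5, the main Hsp70 chaperone of the endoplasmic reticulum, rose by 1.49 ± 0.13 in KO and 1.30 ± 0.13 in WT mice. The one that fell was Agr3, a paralog of Agr2, which fell by 2.11 ± 0.18 in KO and by 1.87 ± 0.15 in WT mice on the log2 scale (adjusted p = 6.33e-07 in KO and 2.75e-06 in WT mice, edgeR). The paralogs thus moved in opposite directions.

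Of 22 other goblet cell genes in both tables, 21 rose in KO and 22 in WT mice, with medians of 2.67 in KO and 2.20 in WT mice. Bace2, a membrane aspartyl protease, rose by 3.45 ± 0.32 in KO and 2.60 ± 0.29 in WT mice, and Pla2g10, a secreted phospholipase A2, by 3.32 ± 0.29 in KO and 2.63 ± 0.30 in WT mice. Membrane-bound mucins, which line the brush border of absorptive cells, moved less. The list held Muc3, Muc3a, Muc4, Muc13 and the cadherin-related gene Cdhr5 in both populations. Of these 5, 4 rose and 1 fell in each genotype, with Muc13 at 0.80 ± 0.09 in KO and 0.82 ± 0.10 in WT mice. The one that fell was Muc4, by 0.34 ± 0.12 in KO and by 0.45 ± 0.12 in WT mice, and in KO mice it no longer passed when GFP-high mouse 2, 4 or 6 was left out.

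Markers of the other differentiated lineages moved the same way. In KO mice 23 of 23 Paneth cell, 16 of 16 enteroendocrine, 8 of 9 tuft cell and 16 of 18 enterocyte genes rose in GFP-low cells, with medians of 1.56 (Paneth), 3.36 (enteroendocrine), 2.63 (tuft) and 1.86 (enterocyte). In WT mice 23 of 23, 15 of 16, 9 of 9 and 17 of 18 rose, with medians of 2.24 (Paneth), 2.49 (enteroendocrine), 1.78 (tuft) and 2.11 (enterocyte). Examples are the Paneth cell pentraxin gene Mptx1 (3.11 ± 0.52 in KO and 2.97 ± 0.33 in WT mice) and the proglucagon gene Gcg of enteroendocrine cells (3.68 ± 0.28 in KO and 2.88 ± 0.30 in WT mice). All 17 stem cell genes fell in both genotypes, with medians of −2.21 in KO and −1.96 in WT mice. Of the 7 leukocyte genes present in both populations, 2 rose in each genotype, Itgam and Lyz2, the second of which is also 1 of the 23 Paneth cell genes, and of the stromal, endothelial and erythroid list the tables hold only Vim, which rose by 3.27 ± 0.28 in KO and 2.42 ± 0.40 in WT mice. Of 23 mitochondrial and immediate-early or heat-shock genes, kept as a measure of RNA quality and handling, 8 rose in KO and 3 in WT mice. Over all genes tested, 26.2% were called higher in GFP-low cells of KO mice and 22% in those of WT mice. The part of these lists in the goblet gene differences was not tested.

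**Figure D3:**
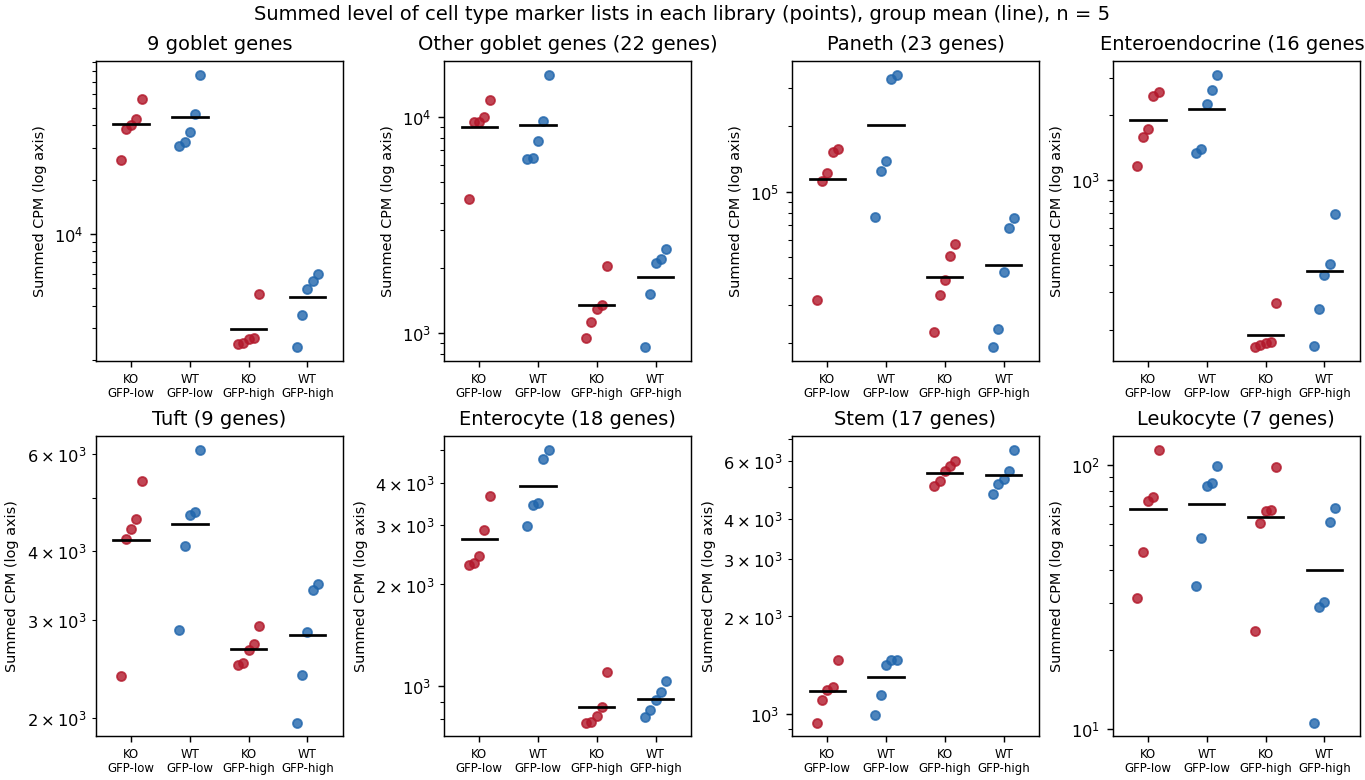
Summed CPM (log axis) of the 9 goblet genes and of 7 lists of cell type markers by group, with 1 point per library (spread sideways in order of value) and the mean as a black line, n = 5. The goblet, enteroendocrine and enterocyte sums are higher in all GFP-low libraries than in any GFP-high library and the stem cell sum is lower, while Paneth, tuft and leukocyte sums overlap between the populations.

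The second comparison asked whether loss of Itgb7 changed the goblet genes within a population. In GFP-high cells the log2 fold change of KO over WT was negative for all 9, between -0.88 ± 0.26 (Zg16) and -0.28 ± 0.37 (Clca1), but none passed. Of 11745 genes tested edgeR called 0, which is 0% of the background, and 0 of the 9, with adjusted p-values of the 9 between 0.254 (Zg16) and 0.873 (Clca1). At an unadjusted p under 0.05 there were 1150 genes, 9.79% of those tested, and 5 of the 9 goblet genes. DESeq2 called 145 genes, none of them among the 9. The median over the 9 was −0.63, against 0.01 over all genes, of which 48.6% were negative. The 9 vary together from library to library, as described further on, and so are not separate observations of a difference.

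Zg16 had 659, 430.1, 348, 594 and 298 CPM in KO GFP-high libraries, against 1037, 1403, 664, 548 and 648 CPM in WT GFP-high libraries. The ranges overlapped only through KO mice 2 and 5 (unadjusted p = 0.00497, adjusted p = 0.254, edgeR). Tff3 had 399.5, 439.9, 390.4, 912 and 503 CPM in KO GFP-high libraries, against 1308, 952, 720.1, 495 and 1039 CPM in WT GFP-high libraries, a log2 fold change of -0.77 ± 0.26 (unadjusted p = 0.0115, adjusted p = 0.328, edgeR). There KO mouse 5 lay among the WT libraries and WT mouse 7 among the KO libraries. Rep15 (-0.63 ± 0.23), Fcgbp (-0.63 ± 0.27) and Capn9 (-0.65 ± 0.28) had adjusted p-values of 0.365, 0.455 and 0.462 in that order. Agr2 was at -0.52 ± 0.28, Muc2 at -0.31 ± 0.30 and Spink4 at -0.31 ± 0.30. KO mouse 5 was the highest KO GFP-high library for 8 of the 9 genes, all but Zg16. Without it the 9 values ran from −1.06 to −0.47 with a median of −0.82. Without WT mouse 1 the median was −0.45, with Muc2 at −0.12 and Clca1 at −0.10, and without WT mouse 3 it was −0.44. Clca1 was at −0.0727 without KO mouse 6, and Spink4 at −0.0717 without WT mouse 8. With any 1 library left out all 9 stayed negative and none passed.

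Neighbouring lists in GFP-high cells held no gene that passed in edgeR. Of 10 goblet fate factors 0 were positive, with a median of −0.28 and Foxa3 at −0.53 ± 0.12 (adjusted p = 0.175). Of 20 mucin glycosylation genes 2 were positive (median −0.16, Chst4 at −1.11 ± 0.25), of 26 folding and transport genes 1 (median −0.18, Manf at −0.70 ± 0.14) and of 22 other goblet cell genes 2 (median −0.39, Ccl6 at −0.65 ± 0.28). DESeq2 called Foxa3, Chst4, Gcnt3, Manf and Hspa5 among these lists lower in KO mice. Markers of other secretory lineages gave unequal values, and none passed in edgeR. The median was −0.96 over 16 enteroendocrine genes, of which 0 were positive, and −0.73 over 9 tuft cell genes, of which 1 was positive, with Isl1 at −1.37 ± 0.30 and Alox5ap at −1.68 ± 0.33. The enteroendocrine sum was 190.3 ± 43.2 CPM in KO GFP-high and 376 ± 202 CPM in WT GFP-high libraries (SD, n = 5 each), with overlapping ranges. The tuft cell sum was 2661 ± 176 CPM in KO and 2819 ± 652 CPM in WT GFP-high libraries, less than the spread apart. Over 23 Paneth cell genes the median was −0.17, with 6 positive, and their sum was 40636 ± 13766 CPM in KO and 45725 ± 25442 CPM in WT GFP-high libraries, also less than the spread apart. Of 8 leukocyte genes 7 were positive, with a summed level of 63.4 ± 26.6 CPM in KO GFP-high and 39.9 ± 24.2 CPM in WT GFP-high libraries over the 7 in both tables. Of the 23 genes kept as a measure of RNA quality and handling 10 were positive, with a median of −0.01 and a summed level of 47790 ± 10084 CPM in KO GFP-high and 51221 ± 13558 CPM in WT GFP-high libraries. The lowest values in it were those of heat-shock genes, with Dnajb1 at −0.86 ± 0.29 (unadjusted p = 0.0106, adjusted p = 0.322, edgeR), Hspa1b at −1.09 ± 0.46 (unadjusted p = 0.0328, adjusted p = 0.455) and Hspa1a at −1.16 ± 0.49 (unadjusted p = 0.0338, adjusted p = 0.459). The part of these in the goblet gene values was not tested.

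In GFP-low cells the 9 genes did not differ in a common direction. Of 11778 genes tested edgeR called 1 (0.00849%), and 0 of the 9 goblet genes. At an unadjusted p under 0.05 there were 744 genes and 0 of the 9, and DESeq2 called 12 genes and 0 of the 9. The log2 fold changes ran from -0.33 ± 0.27 (Zg16) to 0.25 ± 0.32 (Clca1), 4 positive and 5 negative, with a median of −0.02 and adjusted p-values between 0.881 (Zg16) and 0.994 (Muc2). Muc2 was at -0.02 ± 0.28, Fcgbp at 0.15 ± 0.27, Tff3 at -0.17 ± 0.29, Spink4 at -0.04 ± 0.30, Agr2 at 0.06 ± 0.28, Capn9 at 0.14 ± 0.29 and Rep15 at -0.20 ± 0.25. The SE of 0.25 (Rep15) to 0.32 (Clca1) sets the size of difference that these libraries could show. WT mouse 8 had the highest CPM of the 5 WT GFP-low libraries for all 9 genes, with a TMM factor of 0.729 that raised its CPM. WT mouse 3 had a like factor (0.730) and the lowest CPM of these libraries for all members but Agr2 and Spink4. Before scaling, the 9 genes took 5.56% of the counts of WT mouse 8, the greatest share of the group. Deposited Clca1 counts were higher in WT mice 6 (27873) and 1 (26210) than in mouse 8 (23753), at similar library totals. Without WT mouse 8, 8 of the 9 values were positive (−0.07 to 0.42, median 0.28). Without KO mouse 5 only 2 were (−0.49 to 0.11, median −0.10), so the signs rested on single libraries and none passed.

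Atoh1 was at −1.25 ± 0.41 in GFP-low cells (unadjusted p = 0.00896, adjusted p = 0.744, edgeR), while Gfi1, a repressor that acts downstream of Atoh1, was at 0.41 ± 0.32. The medians were −0.03 over 10 fate factors, 0.04 over 19 glycosylation genes, −0.04 over 26 folding and transport genes and 0.11 over 25 other goblet cell genes. Over 23 Paneth cell genes the median was −0.76, with 1 positive, and over 21 enterocyte genes it was −0.48, with 1 positive. In each of the 13 lists beside the 9 genes, 0 passed. The summed Paneth level differed by more than the KO SD but less than the WT SD (114924 ± 50363 CPM in KO GFP-low and 203051 ± 125297 CPM in WT GFP-low libraries). Of the 23 RNA quality genes 5 were positive, with a median of −0.08, Hspa1b at −1.48 ± 0.43, Hspa1a at −1.45 ± 0.52 and Dnajb1 at −0.51 ± 0.23. The part of these in the goblet gene values was not tested.

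**Figure D4:**
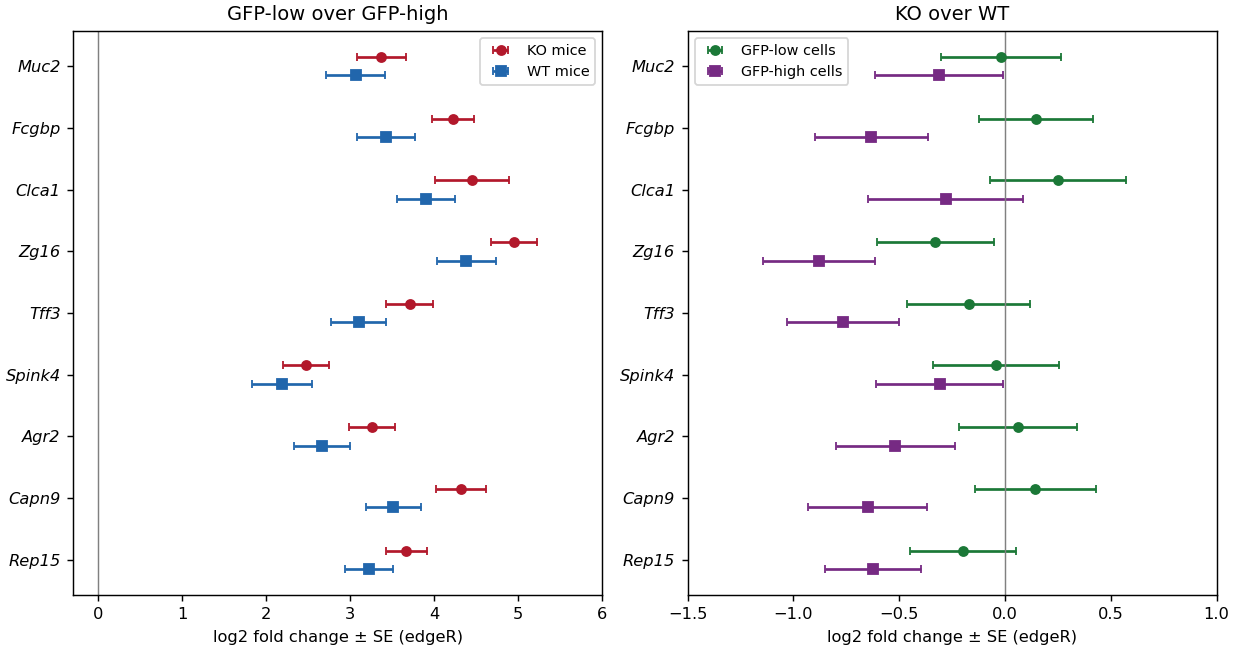
Log2 fold changes ± SE (edgeR) of the 9 goblet genes, for GFP-low over GFP-high cells in KO and WT mice (left panel) and for KO over WT in GFP-low and GFP-high cells (right panel). All values on the left lie above 2, whereas on the right those of GFP-low cells straddle 0 and those of GFP-high cells lie between −0.88 and −0.28 without any passing.

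Whether the genotype difference itself depended on the population was tested as an interaction over all 20 libraries. All 9 terms (the KO effect in GFP-low cells minus that in GFP-high cells) were positive, from 0.27 ± 0.46 (Spink4) to 0.79 ± 0.44 (Capn9), with a median of 0.55 against 0.00 over all genes. None passed. Of 11296 genes tested edgeR called 0, or 0%, and DESeq2 0, with 353 genes and 0 of the 9 at an unadjusted p under 0.05. The smallest unadjusted p of the 9 was 0.0751 (Fcgbp, adjusted p = 0.9999, edgeR). With each mouse as a block the interaction had 777 genes at an unadjusted p under 0.05 and called 0, and the 9 kept positive values (0.24 to 0.78). The median of the 9 was 0.84 without KO GFP-high mouse 5, 0.81 without WT GFP-low mouse 8 and 0.39 without KO GFP-low mouse 5, and Spink4 was at 0.0298 without WT GFP-high mouse 8. With any 1 library left out all 9 stayed positive and none passed. The greater GFP-low over GFP-high fold changes in KO than in WT mice, seen for all 9 genes, are this same set of terms and share its test.

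Within groups, the goblet transcripts varied together. Each library's log2 CPM was taken as a deviation from its group mean, over 20 libraries of 10 mice, and correlations are given as a description with no p, since libraries share mice and scaling. Pearson's r between members ran from 0.23 to 0.94 over 36 pairs, with a median of 0.79. In GFP-high libraries alone it ran from −0.036 (Zg16 with Spink4) to 0.978, with a median of 0.760. In GFP-low libraries alone it ran from 0.545 to 0.969, with a median of 0.851. Muc2 followed the mean of the other 8 most closely (r = 0.970), then Rep15 (0.957), Agr2 (0.945), Fcgbp (0.939), Tff3 (0.932), Capn9 (0.912) and Clca1 (0.786). Spink4 (0.688) and Zg16 (0.678) followed it least. They also differed in which other lineage they followed. Spink4 had r = 0.882 with the mean of the Paneth cell genes, Zg16 0.0976, and the other 7 between 0.367 (Clca1) and 0.648 (Agr2). With enteroendocrine genes the 9 had r between 0.468 (Spink4) and 0.792 (Muc2), and with stem cell genes all were negative, from −0.614 (Zg16) to −0.114 (Spink4).

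Of 11287 other genes, the 8 whose deviations were most like the mean of the 9 were Klk1 (r = 0.974, Spearman's rho = 0.964), Spdef (r = 0.969, rho = 0.946), Atp2a3 (r = 0.964, rho = 0.965), Cgref1 (r = 0.961, rho = 0.902), Kdelr3 (r = 0.956, rho = 0.934), Tpsg1 (r = 0.953, rho = 0.920), Pdia5 (r = 0.947, rho = 0.928) and Selenom (r = 0.946, rho = 0.916). Klk1 encodes a tissue kallikrein, Atp2a3 a calcium pump of the endoplasmic reticulum, Kdelr3 a retrieval receptor for resident proteins of that compartment, Tpsg1 a tryptase and Pdia5 a disulfide isomerase. All 8 were called higher in GFP-low cells, by log2 fold changes between 2.10 (Pdia5) and 3.45 (Tpsg1) in KO mice and between 1.79 (Pdia5) and 2.78 (Kdelr3) in WT mice. The share of all genes tested that was called higher there was 26.2% in KO and 22% in WT mice. Rab15, the GTPase from which Rep15 takes its name, was looked up after the values were seen and had r = 0.943 and rho = 0.919 with the mean of the 9.

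**Figure D5:**
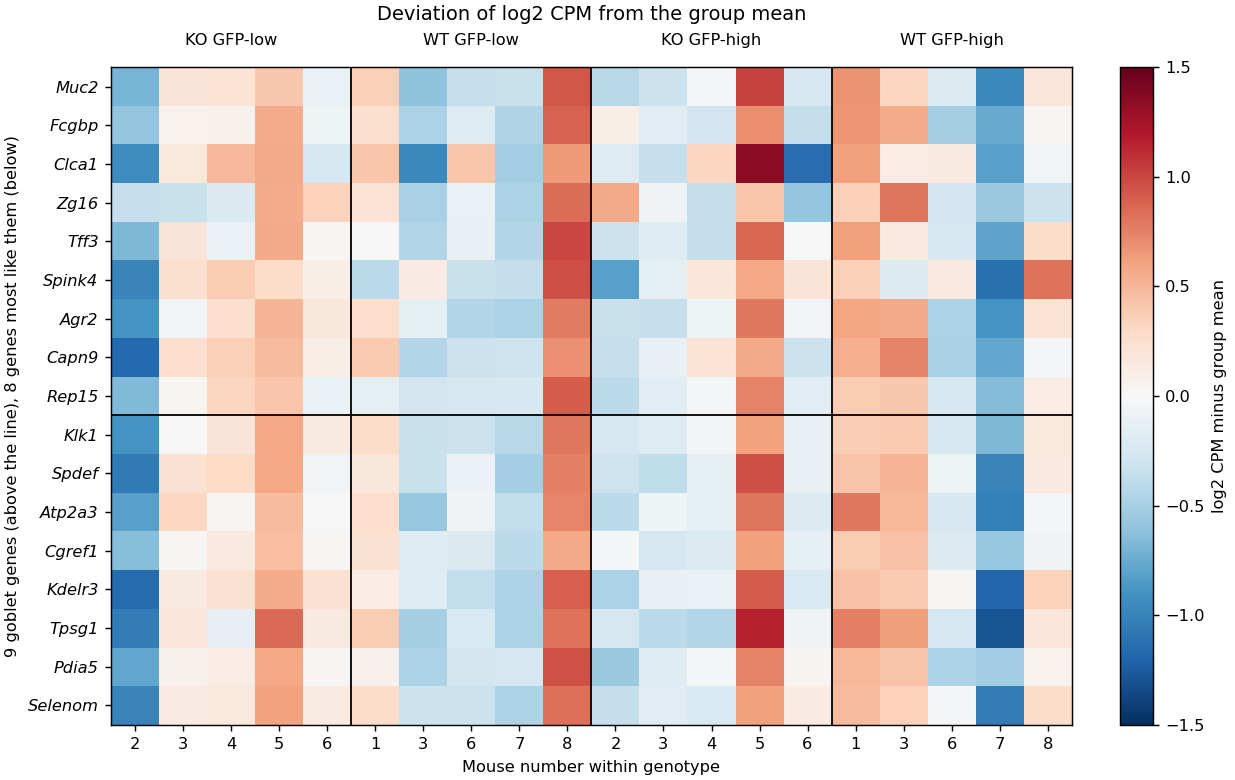
Deviation of log2 CPM from the group mean (colour, log2 units) for the 9 goblet genes and the 8 genes most like them, in 20 libraries ordered by group and mouse number. Whole columns share a colour: KO GFP-high mouse 5 and WT GFP-low mouse 8 are high for all 17 genes, and KO GFP-low mouse 2 and WT GFP-high mouse 7 are low for all 17.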

How the data were processed

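The mouse build mm10 and the tools RSEM, TopHat2 and Bowtie2 are named per the submitters' processing notes, and their steps and versions were not given in the sources used here. Each sorted population has 1 table of expected counts, as deposited by the authors, with 11746 gene entries for GFP-high and 11779 for GFP-low libraries. The deposited expected counts were rounded to whole counts here. They were not whole for Rep15 in 18 of 20 libraries and for Fcgbp in 7 of 20, and were whole for the other members. The lowest mean count of an entry was 17.0 (GFP-high) and 16.8 (GFP-low), and genes below are not analysed here. Whether strand was kept is not stated.

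Two-sided quasi-likelihood tests were run on the counts in edgeR 4.0.16 (R 4.3.3) after TMM scaling and filterByExpr (minimum count 10), and genes with a Benjamini-Hochberg adjusted p under 0.05 over all genes tested were called. KO was compared with WT on the 10 libraries of a population, GFP-low with GFP-high on the 10 libraries of a genotype, and the interaction was fitted on 20 libraries, without a block. DESeq2 1.42.0, other scalings, no filter, a replicate block and leaving out each library were alternatives. Fold changes are log2 with SE from the F statistic, and levels are CPM with SD. Log2 CPM for deviations used a prior count of 2. Scaling is set per comparison, so fold changes differ slightly from ratios of the levels given. Gene positions and exon lengths came from GENCODE M21 (GRCm38). The steps were tested on simulated data.

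The members, gene lists and tests were chosen with earlier results of these data known. Named were all 9 members, Lgr5, in each list the 2 to 4 genes with the smallest p in the comparison described, some of them left out, and the 8 genes most like the members. A gene is compared across genotypes where it was named in either.

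The same mouse number links the 2 populations of a genotype. The deviations of the 2 libraries of a number correlated at 0.201 to 0.436 in KO and 0.169 to 0.625 in WT mice, all 10 over 0.1. Among the GFP-low libraries of its genotype, each GFP-high library correlated best with that of its own number. For WT mouse 3 the margin was slight (0.169 against 0.138 for another number). Across genotypes the numbers 3 and 6 name different mice. Libraries of a group differed by at least a chi-square of 19.4 per gene, so none was a copy. P-values of KO against WT measure the spread between these numbered mice. The tests of GFP-low against GFP-high and of the interaction had no mouse block. They treat the 2 libraries of a mouse as separate, so their p-values measure the spread between libraries.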

Additional observations from a re-analysis of the deposited data

Results flagged for a closer look

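Of 36 sets formed by a goblet gene and a group, 7 held a library that stood apart in CPM. A library was judged by its gap to the nearest library divided by the group's range, both in CPM. The limit is 0.71 for 5 libraries, and chance gives about 1 in 20 sets. In KO GFP-high cells mouse 5 was the high library for Muc2 (404 CPM, the next library at 195 CPM, ratio 0.8212), Tff3 (912 and 503 CPM, 0.7844), Agr2 (1150.4 and 649 CPM, 0.8006) and Rep15 (41.7 and 24.5 CPM, 0.7518). In WT GFP-low cells mouse 8 was the high library for Tff3 (14351 and 7106 CPM, 0.7978), Rep15 (663 and 320.1 CPM, 0.9195) and Spink4 (7021 and 3885 CPM, 0.7267). The genes vary together, so the 7 sets flagged in CPM come from 2 libraries rather than 7 separate events. This count holds for CPM only. Log2 CPM widens gaps at the low end and narrows those at the high end, and the rule was not applied to it. In log2 CPM, KO GFP-low mouse 2 lay far below its group for Capn9 (5.84, next 7.10, highest 7.48). The same library was far below for Spink4 (10.80, next 11.89, highest 12.17). Without KO GFP-high mouse 5 the log2 fold changes of GFP-low over GFP-high cells in KO mice ran from 2.63 to 5.05 over the 9 genes, and without WT GFP-low mouse 8 those in WT mice ran from 1.86 to 4.11, with all 9 called in each. The values of KO against WT and of the interaction without these libraries stand beside those results.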

How the results depend on the processing

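The call of all 9 goblet genes as higher in GFP-low cells held in both genotypes under upper-quartile factors, library totals only, DESeq2, no filter, the replicate block by mouse and each left-out library. The count of genes called there was 5189 to 5624 in KO and 4268 to 4803 in WT mice with a library left out. With library totals only the median of all genes moved to −0.27 in KO and −0.37 in WT mice, the split of called genes to 1778 higher and 4738 lower in KO and 1188 and 4895 in WT mice, and the 9 ran from 2.19 to 4.67 in KO and 1.79 to 3.99 in WT mice. For KO against WT, DESeq2 called 145 genes in GFP-high and 12 in GFP-low cells, and leaving out a library gave 0 to 1 genes in GFP-high and 1 to 2 in GFP-low cells. Numbers 3 and 6, which KO and WT mice share without being the same mice (correlations of their deviations −0.105 to −0.0764), give a replicate block that rests on 4 libraries with 1 residual degree of freedom. It called 122 genes in GFP-high cells, 6 of the 9 goblet genes among them as lower, and 36 genes in GFP-low cells. In GFP-low cells values of KO over WT, none called, changed sign. Under the replicate block Muc2 was at 0.58, Tff3 at 0.27, Zg16 at 0.0066, Rep15 at 0.0792 and Spink4 at 0.26, and with library totals only, which moved the median of all genes to 0.14, Muc2 and Spink4 were at 0.14. With 1 library left out the 6 members that changed sign ran from −0.16 to 0.27 (Muc2), −0.33 to 0.17 (Tff3), −0.0148 to 0.42 (Fcgbp), −0.0725 to 0.29 (Agr2), −0.31 to 0.10 (Rep15) and −0.15 to 0.28 (Spink4). The cause was not tested. No member was called in KO against WT under the other alternatives run. The 5 mice per genotype limit what could be shown.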
